A study of Mus musculus with 52 samples.

Results

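Granzymes and the other genes of the cytotoxic granule were followed in subcutaneous KPC tumors of mice: Gzma, Gzmb, Gzmc, Gzmd, Gzme, Gzmf, Gzmk, Prf1 and Nkg7. They were taken by gene symbol, and all 9 were found among the 27525 genes of the deposited expression table. Cytotoxic lymphocytes keep perforin, the product of Prf1, and granzymes, a family of serine proteases, in secretory granules. On contact with a target cell the granules are released, perforin opens pores in the target membrane, and granzymes enter and cleave proteins whose cleavage leads to cell death. Nkg7 encodes a granule membrane protein needed for efficient granule release. CD8 T cells and NK cells are the main sources in tumors, and some granzymes are also known from other lymphocytes and from mast cells.

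The KPC cells, called KxPxCx in the labels, derive from a pancreatic tumor of genetically engineered mice that carry Pdx1-Cre, and were injected under the skin of the flank of male C57BL/6NHsd mice aged 8 to 10 weeks. Tumors were left untreated, or received 2 μg of ADU-S100 (a cyclic dinucleotide that activates STING) into the tumor once, or 100 μg of anti-LTβR (an antibody that activates the lymphotoxin β receptor) into the peritoneum 4 times, or both agents in combination. All were removed on day 14, with 8 tumors in each of the 4 groups, and poly(A) RNA was sequenced from each tumor as a whole. The comparisons ask how each agent and their combination relate to levels of the killing machinery in the tumor. The 32 libraries held 12762453 to 15591986 reads assigned to genes, with a median of 14932388. Values are normalized counts, that is, reads per gene divided by a size factor for each library, and differences are on the scale of log2(normalized count + 1). The labels do not say whether any mouse carried more than 1 tumor, so that p-values measure the spread between tumors. In such bulk samples, fewer cells of a type and less RNA per cell cannot be told apart.

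In the GENCODE annotation of GRCm38, 5 of the genes lay on the minus strand of chromosome 14 within 144.6 kb, with Gzmg and Gzmn between them: Gzme (56117626 to 56120625), Gzmd (56129556 to 56132608), Gzmf (56205263 to 56211417), Gzmc (56231441 to 56234656) and Gzmb (56258838 to 56262260). Gzmf overlapped the annotated gene Gm4022. Gzma (113093825 to 113100981) and Gzmk (113171608 to 113225908) lay on the minus strand of chromosome 13, and the long gene model of Gzmk overlapped Esm1. Whether the authors' counting used the strand is not given in the sources used here. Prf1 (61297833 to 61304680) was on the plus strand of chromosome 10 and Nkg7 (43437073 to 43438249) on the plus strand of chromosome 7. The sources differ on the genome build behind the deposited values, and the positions serve to place the genes.

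The 120 bases before the transcript start of each gene are shown because genes of the chromosome 14 group varied together between tumors and because their upstream sequences were close copies of one another. They are RefSeq sequences of GRCm38.p6, found for 9 of 9 genes and cut back where the GENCODE transcript starts earlier. Capitals mark matches, on either strand, to TGTGGT (the core bound by Runx factors), TGACGTCA (the cyclic AMP response element, CRE), TGANTCA (AP-1), TTCNNNGAA (STAT) and GGTGTGA (T-box factors such as T-bet and Eomes). No matches overlapped in these genes. The group of 4 close copies reads as follows, at chr14:56234658-56234777, minus strand for Gzmc, chr14:56132609-56132728, minus strand for Gzmd, chr14:56120626-56120745, minus strand for Gzme and chr14:56211418-56211537, minus strand for Gzmf.
Gzmc: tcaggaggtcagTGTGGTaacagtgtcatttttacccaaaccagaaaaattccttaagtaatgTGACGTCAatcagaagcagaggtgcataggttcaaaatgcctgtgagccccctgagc
Gzmd: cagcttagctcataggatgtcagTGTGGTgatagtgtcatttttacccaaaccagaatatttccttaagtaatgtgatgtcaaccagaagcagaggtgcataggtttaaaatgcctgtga
Gzme: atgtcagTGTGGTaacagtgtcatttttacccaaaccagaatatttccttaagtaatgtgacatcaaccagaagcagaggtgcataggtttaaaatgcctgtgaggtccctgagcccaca
Gzmf: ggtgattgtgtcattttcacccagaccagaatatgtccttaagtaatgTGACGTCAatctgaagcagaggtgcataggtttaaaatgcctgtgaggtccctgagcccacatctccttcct
The other 5 are those of Gzmb (chr14:56262335-56262454, minus strand), Gzma (chr13:113100982-113101101, minus strand), Gzmk (chr13:113180966-113181085, minus strand, inside an intron of its longest gene model), Prf1 (chr10:61297713-61297832, plus strand) and Nkg7 (chr7:43436953-43437072, plus strand).
Gzmb: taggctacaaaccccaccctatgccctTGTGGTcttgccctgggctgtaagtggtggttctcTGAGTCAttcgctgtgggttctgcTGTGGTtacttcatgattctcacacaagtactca
Gzma: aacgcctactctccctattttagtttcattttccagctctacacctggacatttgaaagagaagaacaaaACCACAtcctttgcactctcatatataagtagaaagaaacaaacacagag
Gzmk: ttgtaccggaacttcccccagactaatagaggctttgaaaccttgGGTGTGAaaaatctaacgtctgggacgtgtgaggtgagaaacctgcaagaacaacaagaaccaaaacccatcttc
Prf1: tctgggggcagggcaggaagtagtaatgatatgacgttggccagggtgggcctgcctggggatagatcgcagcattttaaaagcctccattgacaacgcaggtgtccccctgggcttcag
Nkg7: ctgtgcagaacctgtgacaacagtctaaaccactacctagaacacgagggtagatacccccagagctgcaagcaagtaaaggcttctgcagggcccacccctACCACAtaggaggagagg

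Over the whole upstream window of up to 250 bases, the Runx letters were found in 8 of the 9 genes, against 14% of 32851 RefSeq promoter windows. The CRE letters were found in Gzmc and Gzmf, against 1.55% of windows, and were not spelled out in full at the aligned place in Gzmd and Gzme. AP-1 letters were found in Gzmb (6.75% of windows), STAT letters in Nkg7 (7.02%) and T-box letters in Gzmk (3.33%). Between Gzmd and Gzme, 95.7% of 234 aligned upstream bases were the same, and between Gzmc and Gzmd 84.1% of 233. The Runx match of Prf1 and the STAT match of Nkg7 lie further upstream than the bases shown. The nearer Runx match of Gzmf starts upstream of them and ends in their first letters, ggt, which stay in lower case because only whole matches were marked. These are matches of letters and say nothing of binding.

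Per kilobase of exon, which allows levels of different genes to be compared, Gzmb was the most abundant over the 32 tumors, at 409 ± 117 normalized counts per kb (SD, n = 32). Nkg7 followed at 269 ± 83.9 and Gzmc at 229 ± 104, which overlapped within their spread. Prf1 stood at 167 ± 53.4, Gzmf at 129 ± 87.9, Gzmd at 107 ± 71.2, Gzme at 83.4 ± 51.3 and Gzma at 61.1 ± 25.7, with each neighbor in this order within the spread of the next. The order differed between groups: Gzmc (296) was above Nkg7 (219) per kb in untreated tumors and Gzmf (194) above Prf1 (177) in combination tumors. In anti-LTβR tumors Gzma (77) was above Gzme (55.2) and Gzmd (69.7), and Prf1 (207) above Gzmc (200). In ADU-S100 tumors Gzmd (95.2) was above Gzmf (93.1). Gzmk, a granzyme of memory-like CD8 T cells, was lowest at 13.1 ± 7.01, with normalized counts from 4.02 to 44.3 in single tumors, so that its values carry the largest counting error. The genes other than Gzmk were read from at least 23.1 normalized counts in every tumor.

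**Figure D1:**
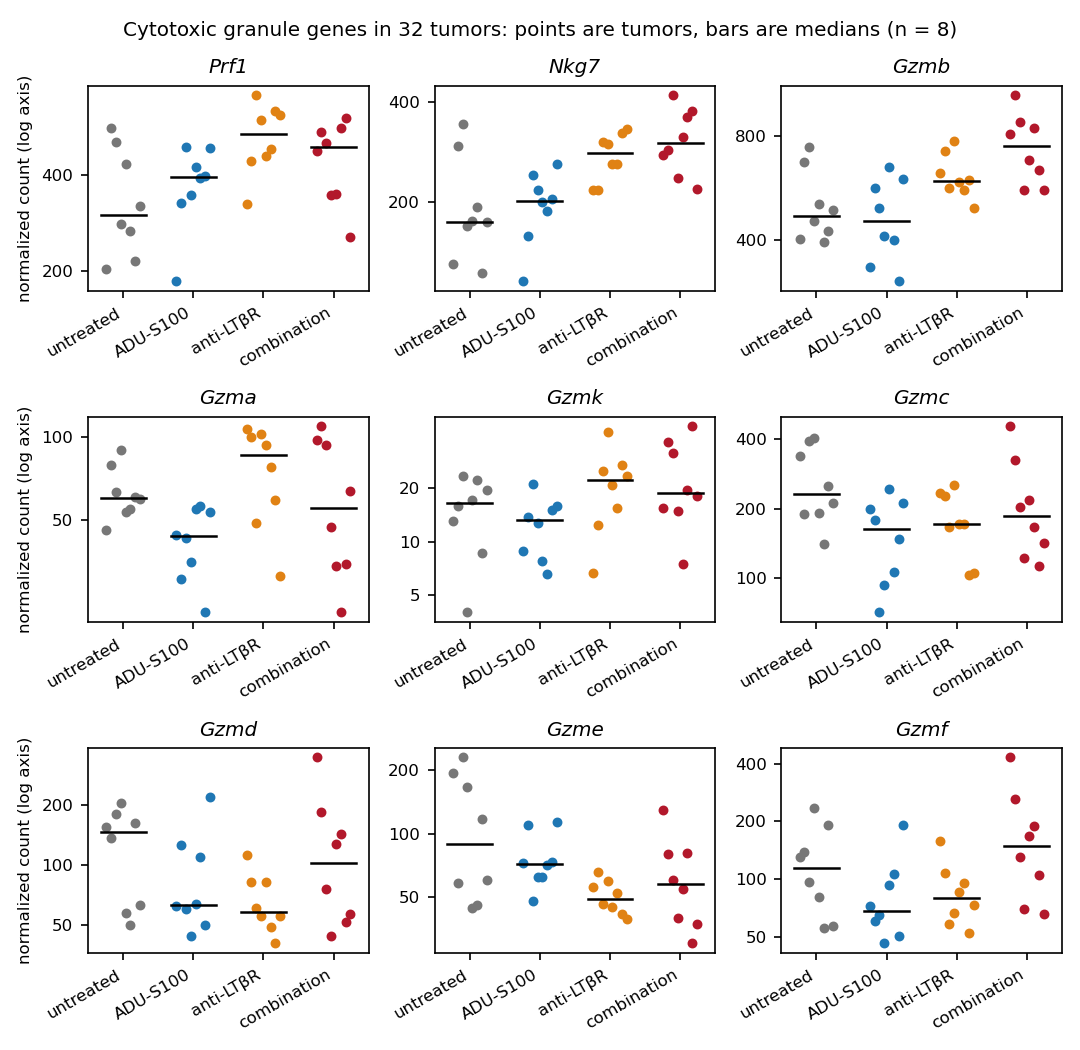
Normalized counts (log axis) of 9 cytotoxic granule genes in each of 32 tumors, 8 per group, with each point a tumor and each bar a group median. Nkg7 and Gzmb were highest in combination tumors (medians 300.0 and 749), Gzme was highest in untreated tumors (median 89.0), and all groups overlap.

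Combination treatment went with higher levels of 2 of the 9 genes, Gzmb and Nkg7, and with no gene lower. Gzmb, the granzyme that cleaves caspases and Bid, ranged from 395 (median 470) to 742 in untreated tumors and from 557 (median 749) to 1049 in combination tumors. All 8 combination tumors lay above the untreated median and 4 of 8 above every untreated tumor. The difference was 0.56 on the log2 scale, a 1.47-fold higher level (SE 0.155, adjusted p = 0.00794, limma over 16909 genes). Nkg7 ranged from 122 (median 174) to 343 in untreated and from 219 (median 300.0) to 418 in combination tumors, a difference of 0.68 or 1.61-fold (SE 0.202, adjusted p = 0.0116). Here, too, all 8 combination tumors were above the untreated median, with 3 of 8 above every untreated tumor. Neither call was lost when any of the 16 tumors was left out, while Nkg7 had an adjusted p of 0.0566 without the 7 libraries under 14000000 reads. Among all genes tested, 19.6% were called higher and 23.6% lower, so that 2 of 9 is close to the background share. With edgeR on whole reads, 3271 were called higher and 3391 lower with TMM scaling, and 3279 and 3212 with library totals.

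The other 7 genes were not called in this comparison. Prf1 had 203 (median 301) to 564 in untreated and 256 (median 491) to 606 in combination tumors, a difference of 0.43 with a 95% confidence interval from -0.06 to 0.91 (adjusted p = 0.145). Gzmk differed by 0.54 (interval -0.25 to 1.32) and Gzmf by 0.43 (-0.39 to 1.26). Gzma (-0.17), Gzmc (-0.34), Gzmd (-0.12) and Gzme (-0.70) had lower mean log2 values in combination tumors, with intervals that all held 0, while the mean normalized count of Gzmd was 126 in untreated and 129 in combination tumors. The directions of Gzma and Gzmd were not stable: on whole reads Gzmd was 0.04 to 0.06 with edgeR and DESeq2, and Gzma was 0.02 with edgeR on library totals. Gzma spread widely in combination tumors, from 23.1 (median 55.2) to 109, with 3 tumors above every untreated tumor and 3 below every untreated tumor (46.1, median 59.8, to 89.4). Gzma encodes a granzyme with trypsin-like specificity.

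The granzymes next to Gzmb on chromosome 14 had some of the widest spreads. Gzmd ranged from 50.0 (median 146) to 205 in untreated tumors and from 44.2 (median 102) to 346 in combination tumors, where the highest tumor had 7.82 times the lowest. Gzmf ranged from 55.6 (median 114) to 236 in untreated and from 65.6 (median 149) to 432 in combination tumors. Gzmc ranged from 140 (median 232) to 404 and from 113 (median 186) to 455. Combination tumor 1 held the highest value of its group for Gzmc, Gzmd, Gzme and Gzmf alike. Gzme ran from 44.2 (median 89.0) to 231 in untreated and from 30.0 (median 57.3) to 129 in combination tumors. Gzmc to Gzmf encode mouse granzymes made by strongly activated lymphocytes, whose substrates are less well known than those of granzymes A and B.

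**Figure D2:**
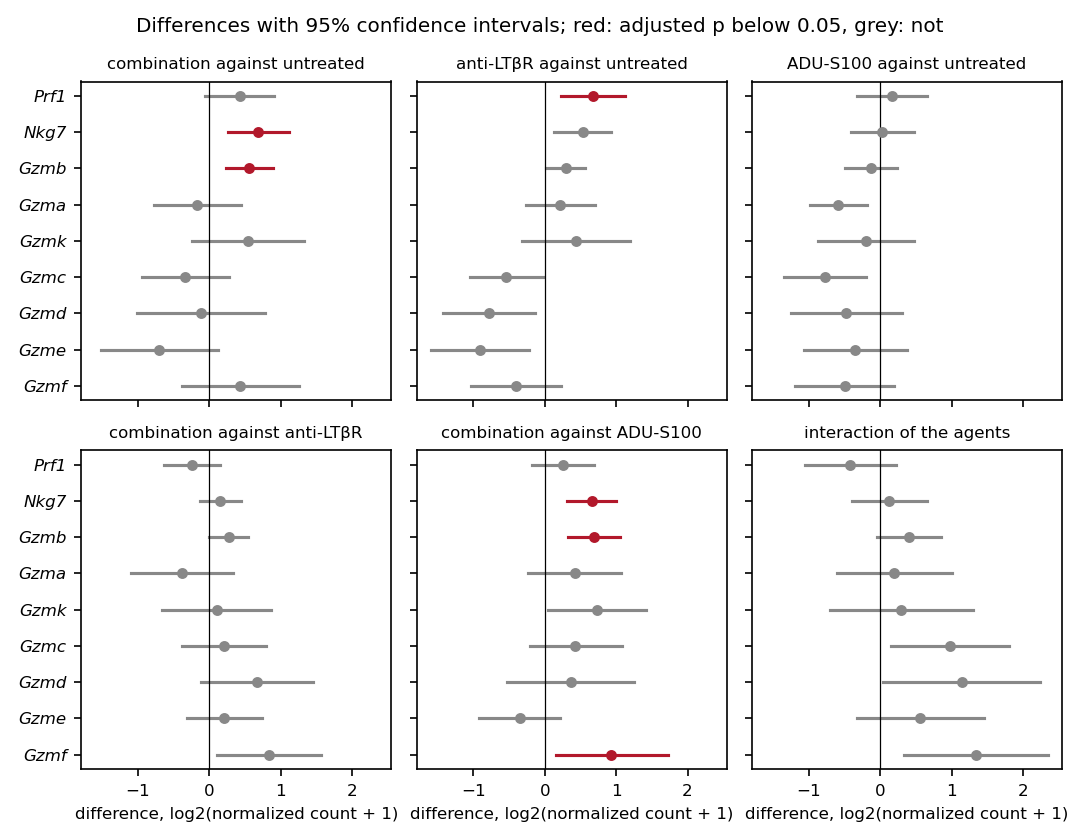
Differences in log2(normalized count + 1) between groups for each gene (points) with 95% confidence intervals (lines), in 5 comparisons and for the interaction of the agents. Red marks an adjusted p below 0.05: Gzmb and Nkg7 in combination against untreated tumors, Prf1 in anti-LTβR against untreated tumors, and Gzmb, Nkg7 and Gzmf in combination against ADU-S100 tumors.

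Of the genes for granule content, processing and release, 6 of 14 tested were higher in combination than in untreated tumors and 3 lower, beside 19.6% and 23.6% of all genes tested. Rab27a, a small GTPase needed for granule docking, rose by 0.76 (adjusted p = 0.000132), from 164 ± 31.0 to 276 ± 42.0 (SD, n = 8 per group). Lyst, the gene of lysosomal trafficking mutated in beige mice, rose by 0.45 (adjusted p = 0.00200), and Cst7, a cystatin that inhibits granule cathepsins, rose by 0.97 (adjusted p = 0.00278). Ctsc, the protease that activates granzymes, rose by 0.34 (adjusted p = 0.0131), and Ctsw and Lamp2 were the other genes called higher. Syt7, a calcium sensor of lysosome exocytosis, fell by 0.81 (adjusted p = 0.000699), as did the SNARE genes Stx11 (-0.32, adjusted p = 0.00511) and Vamp8 (-0.24, adjusted p = 0.0465). Vamp7 was not analysed here. All p-values are from limma with Benjamini-Hochberg adjustment over all genes tested.

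Of 6 serpins that block granzymes or other proteases, 2 were higher and 2 lower, beside shares of 19.6% and 23.6% over all genes. Serpina3g rose by 1.01 (adjusted p = 0.000170) and Serpina3n, an extracellular inhibitor of granzyme B, by 0.89 (adjusted p = 0.00764). Serpinb6a fell by 0.54 (adjusted p = 0.000330) and Serpinb6b by 0.48 (adjusted p = 0.00769). Serpinb9, the intracellular inhibitor of granzyme B, was at 1114 ± 191 (SD, n = 8) without treatment and at 960 ± 92.9 with both agents (-0.20, adjusted p = 0.0860), and Serpinb9b was not called either (-0.40, adjusted p = 0.0532).

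Lymphocytes also act through death ligands and cytokines, which do not need granules of this kind. Of 9 death ligands and effector cytokines tested, 7 were higher in combination tumors and none lower, with a median difference of 0.98 against 0.43 for the 9 granule genes and -0.02 for all genes tested. Tnf rose by 1.29 (adjusted p = 0.000214), Tnfsf10, which encodes TRAIL, by 0.98 (adjusted p = 0.000388), and Ccl5 by 1.80 (adjusted p = 0.000510). Ifng, at 40.9 ± 17.4 in untreated and 107 ± 44.1 in combination tumors, rose by 1.34 (adjusted p = 0.00174), and Fasl by 0.86 (adjusted p = 0.00324). Of the cytokine receptors of effector lymphocytes, 7 of 8 were higher, with Il12rb2 at the largest difference (1.48, adjusted p = 0.000566) and the smallest p-values for Il2rg (0.92, adjusted p = 7.78e-05), Il18r1 (1.00, adjusted p = 8.70e-05) and Il2ra (1.16, adjusted p = 9.69e-05). Of 11 transcription factors of effector lymphocytes, 4 were higher and none lower: Irf4 (1.70, adjusted p = 0.000129), Tbx21 (1.00, adjusted p = 0.000421), Stat4 (0.58, adjusted p = 0.00105) and Prdm1 (0.56, adjusted p = 0.00705).

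**Figure D3:**
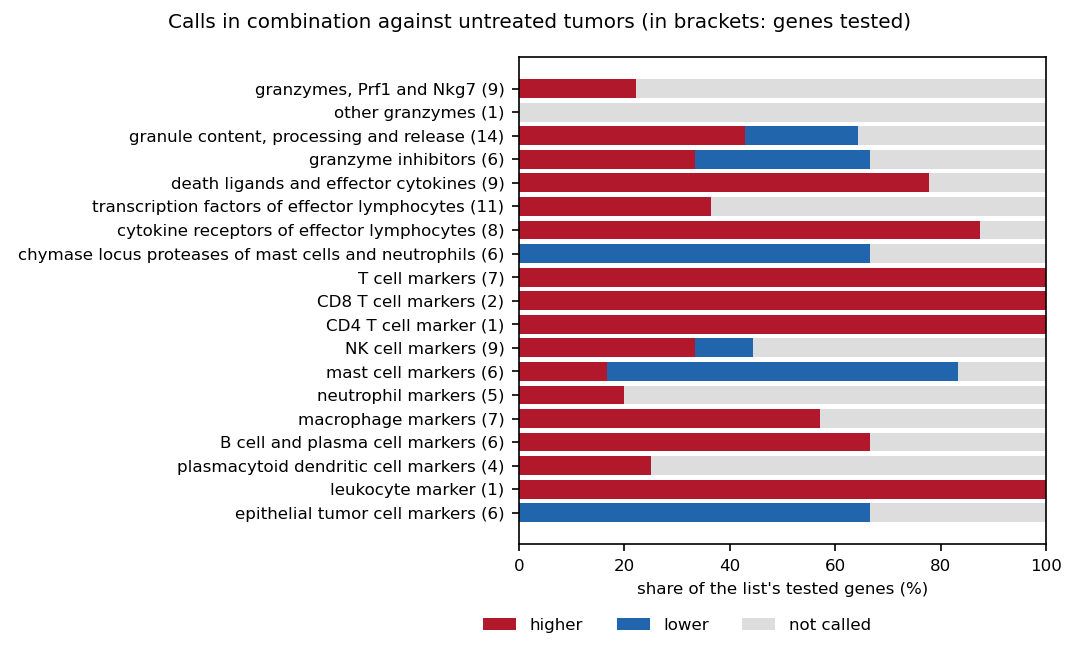
Shares of each gene list (percent of its tested genes, number in brackets) called higher (red), lower (blue) or not called (grey) in combination against untreated tumors. Granzymes, Prf1 and Nkg7 had 2 of 9 higher, beside 7 of 7 T cell markers and 7 of 9 death ligands and effector cytokines. Of all 16909 genes tested, 19.6% were called higher and 23.6% lower, and the lists were not tested against one another.

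Markers of the cells that carry granules moved in the same comparison. All 7 T cell markers were higher, with summed normalized counts from 437 to 1031 (median 605) in untreated and from 897 to 1434 (median 1229) in combination tumors. Cd28, a costimulatory receptor, rose by 1.36 (adjusted p = 2.87e-05) and Cd247, the zeta chain of the T cell receptor complex, by 0.85 (adjusted p = 0.000191). Cd3e rose by 1.01 (adjusted p = 0.000650), Cd8a by 0.89 (adjusted p = 0.00504) and Cd4 by 1.16 (adjusted p = 0.000113). Of 9 NK cell markers, 3 were higher, with Klrk1 at 0.77 (adjusted p = 8.73e-05), and 1 was lower, Klra4, which fell by 0.89 (adjusted p = 5.46e-05). Ncr1, which is close to specific for NK cells and innate lymphoid cells of group 1, had 20.6 ± 2.69 in untreated and 29.1 ± 12.3 in combination tumors (0.36, adjusted p = 0.250). Klra4 made up most of the summed NK markers, with 1251 ± 247 in untreated and 674 ± 113 in combination tumors, and the sum went from 1365 to 2103 (median 1648) down to 1187 to 1438 (median 1357). Their part in the levels of the granule genes was not tested.

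Per unit of Cd3e, Gzmb had a median of 4.82 (3.56 to 6.73) in untreated and 3.46 (2.67 to 4.86) in combination tumors. Nkg7 per Cd8a had a median of 0.606 (0.459 to 0.724) in untreated and 0.515 (0.446 to 0.607) in combination tumors. Prf1 per Cd8a had 1.17 (0.715 to 1.31) and 0.783 (0.540 to 1.05). These ratios are a description with no test, and the groups overlapped in each.

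Markers of mast cells, which can also hold granzymes and whose chymase genes neighbor the granzymes on chromosome 14, were mostly lower, with 4 of 6 tested lower and 1 (Kit) higher. The tryptase genes Tpsb2 (-2.29, adjusted p = 5.12e-05) and Tpsab1 (-2.63, adjusted p = 0.000195) fell. Of 6 tested chymase locus proteases, 4 were lower in combination tumors and none higher, where Mcpt1 fell by 3.86 (adjusted p = 1.26e-05) and Mcpt2 fell by 4.17 (adjusted p = 5.47e-05). Summed over the 7 proteases, untreated tumors had 819 to 2257 (median 1088) and combination tumors 118 to 601 (median 270.0). The mast cell gene Cpa3 fell by 1.49 (adjusted p = 0.000689), from 115 ± 40.1 to 42.8 ± 21.8. Ptprc, the leukocyte gene of CD45, rose by 0.59 (adjusted p = 0.000128), and its values did not overlap between the groups. Among macrophage markers 4 of 7 were higher, among those of B and plasma cells 4 of 6, of neutrophils 1 of 5 and of plasmacytoid dendritic cells 1 of 4, with none lower. The smallest p-values in these lists were those of Cd68 (0.85, adjusted p = 0.000150) and Csf1r (0.60, adjusted p = 0.000385), of Jchain (2.26, adjusted p = 0.000970) and Cd79a (1.60, adjusted p = 0.00314), of Csf3r (0.63, adjusted p = 0.00364) and S100a9 (0.71, adjusted p = 0.151, not called), and of Tcf4 (0.23, adjusted p = 0.0162) and Ccr9 (-0.37, adjusted p = 0.152, not called). Of 6 keratin and epithelial markers of the tumor cells, 4 were lower and none higher, with Krt18 at -1.46 (adjusted p = 2.99e-05) and Krt8 at -0.92 (adjusted p = 0.000124). The part of these markers in the granule genes was not tested.

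Anti-LTβR alone went with a higher level of 1 of the 9 genes, Prf1, and with none lower, where 7.21% of 16691 genes tested were called higher and 8.10% lower. Prf1 had 325 (median 541) to 716 in anti-LTβR tumors, and all 8 lay above the untreated median of 301. The difference was 0.67 or 1.59-fold (SE 0.216, adjusted p = 0.0455). It sat at the threshold: leaving out any of 12 of the 16 tumors (untreated tumors 1, 4, 6, 7 and 8 and anti-LTβR tumors 2 to 8) ended the call, with adjusted p up to 0.0911, and 4 of 9 other settings ended it too, with adjusted p of 0.0596 without the filter on low values, 0.0654 and 0.0548 with edgeR under its 2 scalings and 0.134 without the 7 libraries under 14000000 reads. Nkg7, at 216 (median 280) to 332, also had all 8 tumors above the untreated median, with a difference of 0.53 and an adjusted p of 0.0636. Without untreated tumor 2 or 3 Nkg7 was called, with an adjusted p down to 0.0147, as it was with all groups in 1 fit (adjusted p = 0.0385).

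The chromosome 14 granzymes other than Gzmb had lower means after anti-LTβR, without passing the threshold in limma per pair of groups. Gzme had 39.0 (median 49.0) to 65.9 in anti-LTβR tumors, all below the untreated median of 89.0, and differed by -0.91 (SE 0.328, adjusted p = 0.0675). Gzmd had 40.5 (median 58.3) to 112, again all below the untreated median, and differed by -0.78 (adjusted p = 0.0878). Gzmc differed by -0.54 (adjusted p = 0.127) and Gzmf by -0.41 (adjusted p = 0.354). Without untreated tumor 5 or 6, both Gzme and Gzmd were called lower, with adjusted p down to 0.0317 and 0.0406. Gzme was also called lower in 4 of 9 other settings, namely with all groups in 1 fit (adjusted p = 0.0369), with edgeR on whole reads under either scaling (-1.19 and -1.16, adjusted p = 0.0279 and 0.0275) and with DESeq2 (-1.19, adjusted p = 0.00462), and Gzmd in 1 of 9, with DESeq2 (-0.91, adjusted p = 0.0187). Gzmb, at 496 (median 593) to 773, differed by 0.29 (adjusted p = 0.128), and was called without untreated tumor 3 (0.37, adjusted p = 0.0366). Gzma (0.21) and Gzmk (0.44) were not called. Of 7 T cell markers, 2 were higher, with Cd3e at 0.79 (adjusted p = 0.0102). Of the markers of T cell subsets, Cd8a rose by 0.74 (adjusted p = 0.0316), while Cd8b1 (0.56, adjusted p = 0.146) and Cd4 (0.45, adjusted p = 0.111) were not called. Of 9 NK cell markers, Klrk1 (0.53, adjusted p = 0.00764) and Klri2 (0.69, adjusted p = 0.0229) rose, and Ncr1 was not called (-0.16, adjusted p = 0.725). Cpa3 fell by 1.67 (adjusted p = 0.00181). Their part in the granule genes was not tested.

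ADU-S100 alone gave no call among the 9 genes. By limma, 0 of 16613 genes were called higher and 0 lower (0% each), with 2408 at an unadjusted p under 0.05. On whole reads, edgeR called 1 gene lower, and DESeq2 called 46 higher and 11 lower, with none of the 9 among them. Gzma and Gzmc were the 2 of the 9 with an unadjusted p under 0.05. Gzma had 23.1 (median 43.6) to 56.0 in ADU-S100 tumors, with none above the untreated median and 5 of 8 below every untreated tumor, a difference of -0.59 (adjusted p = 0.276). Gzmc had 70.9 (median 163) to 242, with 1 of 8 above the untreated median, a difference of -0.78 (adjusted p = 0.290). Gzmb, at 304 (median 453) to 653, differed by -0.13 (interval -0.49 to 0.23), Nkg7, at 115 (median 202) to 260, by 0.03 (-0.41 to 0.47) and Prf1, at 185 (median 395) to 491, by 0.17 (-0.32 to 0.66). All 3 intervals held 0. The others were Gzmd (-0.48), Gzme (-0.35), Gzmf (-0.50) and Gzmk (-0.20). No gene of any list was called, with Cd8a at 0.29 (adjusted p = 0.481) and Ncr1 at -0.65 (adjusted p = 0.290).

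Against ADU-S100 tumors, combination tumors had 3 of 9 genes higher and none lower, where 20.2% of 16811 genes were called higher and 26.0% lower. That balance of directions differed with edgeR on whole reads, which called 3564 higher and 3352 lower with TMM scaling, against 3391 and 4368 here. Gzmb differed by 0.69 or 1.62-fold (SE 0.170, adjusted p = 0.00329) and Nkg7 by 0.66 or 1.58-fold (SE 0.164, adjusted p = 0.00359), and both calls held without any of the 16 tumors. Gzmf, at 46.1 (median 68.4) to 192 in ADU-S100 tumors, differed by 0.93 or 1.91-fold (SE 0.372, adjusted p = 0.0499). That call was at the threshold, and leaving out any of 11 tumors ended it (ADU-S100 tumors 1, 2, 3, 4, 5 and 7 and combination tumors 1, 2, 3, 5 and 6), with adjusted p up to 0.0964. Gzmk differed by 0.73 (adjusted p = 0.0721), and was called without ADU-S100 tumor 3 or combination tumor 5, with an adjusted p down to 0.0163, and in 4 of 8 other settings (the replicate block, edgeR under either scaling and DESeq2, adjusted p = 0.0256 to 0.0324). The other 5, namely Gzma (0.42), Gzmc (0.43), Gzmd (0.36), Gzme (-0.35) and Prf1 (0.26), were not called. Gzmf was not called in 3 of 9 other settings. These were no filter on low values, the replicate block, and leaving out the 7 libraries under 14000000 reads (adjusted p = 0.149). Without those libraries Gzma was called (0.82, adjusted p = 0.0446). All 7 T cell markers were higher in this comparison and 7 of 9 NK cell markers, with Cd8a at 0.60 (adjusted p = 0.0131) and Ncr1 at 1.01 (adjusted p = 0.0146). Markers of macrophages (7 of 7), B and plasma cells (6 of 6) and neutrophils (1 of 5) were also higher, and Ptprc rose by 0.45 (adjusted p = 0.00123). Of 6 epithelial markers of the tumor cells, 4 were lower. Klra4, which made up most of the summed NK markers in untreated tumors, fell by 0.77 (adjusted p = 4.09e-05). The sum had medians of 1511 in ADU-S100 and 1357 in combination tumors, and so does not follow the 7 markers that were higher. The part of these markers in the granule genes was not tested.

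Against anti-LTβR tumors, combination tumors had 0 of 9 genes called by limma, with 1 at an unadjusted p under 0.05, where 11.3% of 16932 genes were called higher and 15.3% lower. That balance of directions differed with edgeR on whole reads, which tested 15771 genes and called 2087 higher and 1742 lower with TMM scaling and 1884 and 1849 with library totals, against 1917 and 2587 here. Gzmf, at 52.3 (median 79.7) to 158 in anti-LTβR tumors, differed by 0.84 (SE 0.346, adjusted p = 0.0822). It was called in 4 of 9 other settings, namely the replicate block (adjusted p = 0.00933), edgeR under either scaling and DESeq2 on whole reads. It was also called without anti-LTβR tumor 1, combination tumor 4 or combination tumor 8. Gzmd differed by 0.67 (adjusted p = 0.194) and was called in 1 of 9 other settings, with DESeq2 on whole reads (0.96, adjusted p = 0.0395). Gzmb differed by 0.27 (interval -0.00 to 0.54) and Nkg7 by 0.15 (-0.13 to 0.44). Prf1 and Gzma had negative differences, of -0.25 (-0.64 to 0.15) and -0.39 (-1.10 to 0.33). Cd4 was higher by 0.72 (adjusted p = 0.00189), while Cd8a differed by 0.14 (adjusted p = 0.632). Comparisons named here share groups, so that their values are not independent of one another.

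The interaction of the agents asks whether the combination departed from the sum of the differences made by each agent. With the usual filter on low values no granule gene was called by limma (0 of 9, with 3 at an unadjusted p under 0.05), where 18.4% of 17649 genes were called in either direction (1293 above and 1947 below the sum, against 1433 and 1471 with edgeR on whole reads). The largest values were all on chromosome 14: Gzmf at 1.34 (SE 0.495, adjusted p = 0.0569), Gzmd at 1.14 (adjusted p = 0.140) and Gzmc at 0.98 (adjusted p = 0.0890). In the order untreated, ADU-S100, anti-LTβR and combination, the means were 126, 91.7, 67.2 and 129 for Gzmd and 123, 85.6, 87.1 and 178 for Gzmf. Gzmf was called by limma over the genes with at least 10 in every library (adjusted p = 0.0491) and by edgeR, and Gzmc, Gzmd and Gzmf by DESeq2, the count tests being on whole reads. Gzmf was also called when 1 of 6 tumors was left out (untreated tumors 6 and 8, ADU-S100 tumor 8, anti-LTβR tumor 1, combination tumors 4 and 8), with an adjusted p down to 0.0260. Nkg7 (0.13, interval -0.40 to 0.65), Gzmb (0.40, -0.05 to 0.85) and Prf1 (-0.42, -1.05 to 0.22) were not called.

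Among tumors of the same group, the granule genes fell into sets that varied together. After each group's mean was removed, 17 of 36 pairs of genes had a Pearson correlation past an adjusted p of 0.05 by permutation within groups over 32 tumors, 16 of them positive. Prf1 and Nkg7 were the closest of the first set (r = 0.86, rho = 0.83, permutation p = 1e-05 for each, the smallest that 100000 permutations can give, adjusted p = 9e-05), and r was 0.83 without the 2 tumors farthest from the median of Prf1. Gzmk went with both, at r = 0.57 with Prf1 (permutation p = 0.00124, rho = 0.64, p = 0.0003, adjusted p = 0.00558 and 0.00154) and r = 0.51 with Nkg7 (permutation p = 0.00481, rho = 0.59, p = 0.00096, adjusted p = 0.0173 and 0.00384). Without the 2 tumors farthest from the median of Gzmk these were 0.53 and 0.51. In the pairs below, too, the 2 farthest tumors are those of only 1 gene of the pair.

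Gzmc, Gzmd, Gzme and Gzmf formed the other set, with r from 0.64 to 0.89 in all 6 of their pairs. Gzmd and Gzmf were the closest (r = 0.89, rho = 0.86, permutation p = 1e-05 for each, adjusted p = 9e-05, and 0.84 without the 2 farthest tumors). Gzmc and Gzme had r = 0.79 (rho = 0.78, permutation p = 1e-05 for each, adjusted p = 9e-05, 0.75 without the 2 farthest). Neither Prf1 nor Nkg7 passed with any of these 4, with r from -0.18 to 0.05 for the 8 pairs. Gzmk and Gzmf ran against each other (r = -0.45, permutation p = 0.0162, rho = -0.44, p = 0.0186, adjusted p = 0.0389 and 0.0418, -0.53 without the 2 farthest). In the larger table this pair had r = -0.43, which missed the threshold (adjusted p = 0.051), and rho = -0.46, which passed (adjusted p = 0.036), while the other 16 pairs passed in both tables.

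Gzmb passed with some genes of each set and not with Gzme (r = 0.35, adjusted p = 0.133), Gzmf (r = 0.40, adjusted p = 0.0786) or Gzmk (r = 0.23, adjusted p = 0.312). It passed with Prf1 (r = 0.57, permutation p = 0.00148, rho = 0.55, p = 0.00235, adjusted p = 0.00592 and 0.00846, 0.53 without the 2 farthest) and Nkg7 (r = 0.50, permutation p = 0.00817, rho = 0.42, p = 0.0274, adjusted p = 0.0245 and 0.058, 0.43 without the 2 farthest). It also passed with Gzmd (r = 0.47, permutation p = 0.0137, rho = 0.47, p = 0.0156, adjusted p = 0.0352 and 0.0374, 0.51 without the 2 farthest), Gzmc (r = 0.44, permutation p = 0.0192, rho = 0.46, p = 0.0144, adjusted p = 0.0407 and 0.037, 0.35 without the 2 farthest) and Gzma (r = 0.45, permutation p = 0.00993, rho = 0.45, p = 0.0122, adjusted p = 0.0275 and 0.0338, 0.53 without the 2 farthest). Gzma in turn passed with Gzmc (r = 0.50, permutation p = 0.00733, rho = 0.53, p = 0.00383, adjusted p = 0.024 and 0.0125, 0.48 without the 2 farthest) and Gzmf (r = 0.45, permutation p = 0.0181, rho = 0.51, p = 0.00621, adjusted p = 0.0407 and 0.0186, 0.58 without the 2 farthest). In the 25 libraries above 14000000 reads, r was 0.87 for Prf1 and Nkg7, 0.88 for Gzmd and Gzmf and 0.55 for Gzmb and Prf1.

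**Figure D4:**
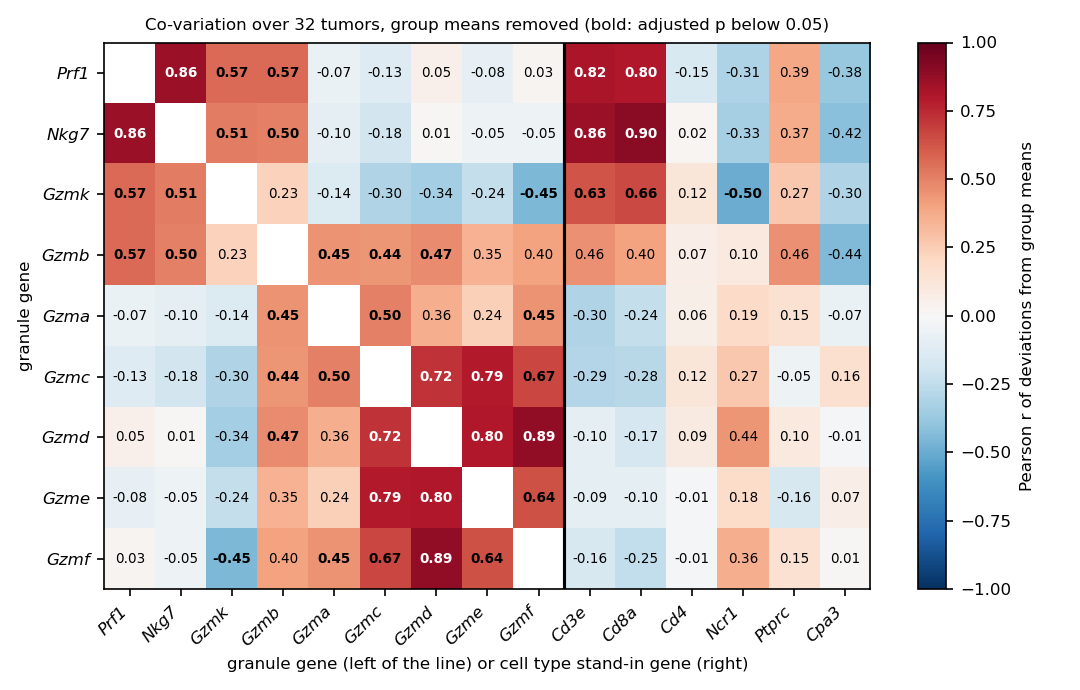
Pearson correlations over 32 tumors of deviations from group means of log2(normalized count + 1), between granule genes (left of the line) and with genes that stand for cell types (right), with numbers in bold at an adjusted p below 0.05. Prf1, Nkg7 and Gzmk go with Cd3e and Cd8a (r from 0.63 to 0.90), and Gzmc, Gzmd, Gzme and Gzmf go with one another (0.64 to 0.89).

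Prf1, Nkg7 and Gzmk varied with Cd3e and Cd8a but not detectably with Cd4, for which r was -0.15, 0.02 and 0.12 (adjusted p = 0.706, 0.982 and 0.784). Of 54 pairs between a granule gene and 6 genes that stand for cell types, 7 passed, all with Prf1, Nkg7 or Gzmk. Nkg7 and Cd8a had r = 0.90 (rho = 0.90, permutation p = 1e-05 for each, adjusted p = 0.000135, 0.88 without the 2 farthest tumors), and Prf1 and Cd3e r = 0.82 (rho = 0.82, permutation p = 1e-05 for each, adjusted p = 0.000135, 0.76 without the 2 farthest). Gzmk had r = 0.66 with Cd8a (permutation p = 0.00021, rho = 0.71, p = 3e-05, adjusted p = 0.00227 and 0.000324, 0.61 without the 2 farthest) and r = -0.50 with Ncr1, whose rho of -0.45 did not pass (permutation p = 0.00544 and 0.0156, adjusted p = 0.042 and 0.0842, -0.40 without the 2 farthest). For Gzmb, r was 0.46 with Cd3e and 0.40 with Cd8a, and for Gzmf -0.16 and -0.25, none of which passed (adjusted p = 0.0636, 0.115, 0.67 and 0.415). Gzmd and Ncr1 had r = 0.44, which did not pass either (adjusted p = 0.0631).

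**Figure D5:**
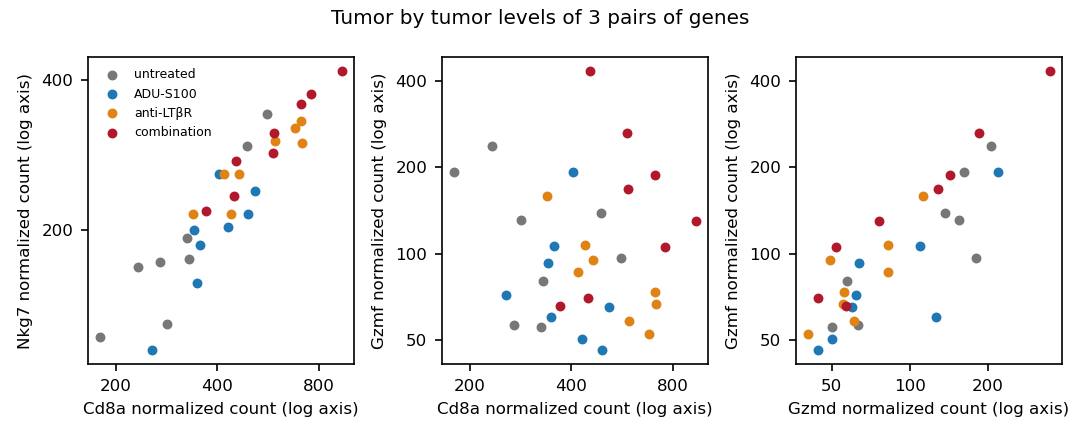
Normalized counts (log axes) of Nkg7 against Cd8a, Gzmf against Cd8a and Gzmf against Gzmd, each point a tumor colored by group. Nkg7 climbs with Cd8a across all 4 groups (r = 0.90 within groups), Gzmf does not (r = -0.25), and Gzmf climbs with Gzmd (r = 0.89).

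Outside the 9 granule genes, which were left out of the search and several of which were closer to one another, the genes most like each of them among 17028 genes, by the same r over 32 tumors, are given as a description with no test. For Nkg7 they were Cd8a (0.90), Trac (0.86), the constant region of the T cell receptor alpha chain, and Pdcd1 (0.86), which encodes PD-1. For Prf1 they were the checkpoint receptor gene Lag3 (0.88), Cd3e (0.82) and Cd8b1 (0.82), and for Gzmk Themis (0.77), 9930111J21Rik2 (0.76) and Cd8b1 (0.75). Gzmb was in this search most like Ifng, Ctsc and Ifi206 (0.72 each). Gzmd, Gzme and Gzmf each had a further granzyme of the locus, Gzmg, among the 3 nearest (0.82, 0.65 and 0.85), and Gzmd and Gzmf also had Steap1 (0.63 and 0.76). The others were Gpr176 (0.62) for Gzmd, Azin2 (0.66) and Rnf138 (0.64) for Gzme, and Gm19705 (0.65) for Gzmf. Outside the 9, Gzmc was nearest to Dbf4 (0.71), Il1rn (0.71) and Ttc39c (0.70), below its r of 0.79 with Gzme and 0.72 with Gzmd, and Gzma to Brd2 (0.68), Cth (0.66) and Smurf1 (0.64).

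Part of the reads of the chromosome 14 set could have been shared between copies. In the GENCODE transcripts, 21.9% of the 50-base windows of Gzmd, 20.6% of Gzme, 7.36% of Gzmf and 4.14% of Gzmc were also found in another granzyme, and none of those of Gzmb, Gzma, Gzmk, Prf1 and Nkg7. Gzmd and Gzme had 94.8% of aligned transcript bases in common and a longest shared run of 96 bases, Gzmd and Gzmf 86.9% and 71 bases, and Gzmc and Gzme 74.0% and 68 bases. Their r within groups were 0.80, 0.89 and 0.79, and the part of shared reads in these correlations was not tested. How the authors' counting treated reads that match several genes is not given in the sources used here, and levels of Gzmd and Gzme are uncertain to that extent. Gzmg itself, with 19.8% shared windows, had 60.7 ± 40.9 in untreated and 70.0 ± 72.3 in combination tumors (-0.07, adjusted p = 0.933). Gzmm, a granzyme of NK cells and unconventional T cells, had 10.7 ± 5.24 and 9.44 ± 3.83 and did not pass the filter on low values in that comparison. Gzmn was not analysed here.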

How the data were processed

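Poly(A) RNA of 32 tumors was read from a deposited table of normalized counts. Per the labels and the study's methods, the authors trimmed reads with cutadapt 1.9. For the mouse tumors the methods name HISAT2 for mapping to an Ensembl release that carries GRCm38 and StringTie for expression levels, while the labels name mm39. The build was not settled here. The signal values in the table as deposited are reads per gene divided by the authors by 1 size factor per library, and are not raw counts. The submitters' processing notes also list STAR and Partek. The study's methods describe them for human samples, but the mouse table carries the name Partek, and which tools made it is not given in the sources used here. A deposited table of 52 libraries, normalized separately, holds the same 32 tumors and 20 of another experiment. Its values for the 9 genes gave ratios of 0.947 to 0.999 between the tables. Another deposited table holds the authors' own gene set results and was not used.

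Whole reads were recovered from the steps of the values (100% whole within 0.05 reads) to give the depth and the input of count tests. In 9 libraries 1 step was close to 1, so that it could not be told from rounding there. Deposited values were tested as log2(value + 1) with limma 3.58.1 in R 4.3.3, per pair of groups, for genes kept by the expression filter of edgeR with a minimum of 10, with Benjamini-Hochberg adjustment over all genes and a threshold of 0.05. The interaction used all 4 groups. Alternatives were a pseudocount of 0.5, other filters, all groups in 1 fit, a replicate block, edgeR 4.0.16, DESeq2 1.42.0, libraries above 14000000 reads and leaving out each tumor. Correlations used deviations from group means, with 100000 permutations within groups. Scripts were tested on simulated data. Named genes were the 9 granule genes, the 2 to 4 genes of each list with the smallest adjusted p in combination against untreated tumors, 6 genes that stand for cell types, and the 3 genes outside these 9 most similar to each granule gene, with a mean of at least 10. Other list genes (Ctsc, Ctsw, Lamp2, Stx11, Vamp8, Serpinb9, Serpinb9b, Fasl, Il12rb2, Kit and Gzmm) were named after their values were seen. Members and lists were chosen with earlier results of these data known, and the 54 correlations with cell type genes were added after seeing the data. Tumors sharing a number were not treated as paired in the main fits. No pair of groups had all 8 correlations of such tumors above 0.1. Mean correlations ran from -0.094 to 0.191, with at most 5 of 8 above 0.1. This check cannot exclude pairing or a shared batch.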

Additional observations from a re-analysis of the deposited data

Results flagged for a closer look

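Single tumors stood apart from the other 7 of their group, by Dixon's criterion, in 9 of 64 groups of 8 values. Chance gives about 1 in 20 for independent, normally distributed values, which these skewed counts of genes that vary together are not, so that no excess is read from that number. Among ADU-S100 tumors, tumor 8 had the highest Gzmd (218.0), Gzmf (192.0) and Gzmg (145.0). In combination tumors the highest Gzmd was 346.0, in tumor 1, and in anti-LTβR tumors the highest Gzmg was 65.2, also in tumor 1. Of the genes that stand for cell types, Cd4 was high in 1 anti-LTβR tumor (212.0) and low in 1 combination tumor (153.0), Ncr1 was high in 1 anti-LTβR tumor (52.7) and Cpa3 in 1 ADU-S100 tumor (209.0).

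Cd4 departed from the sum of the differences made by each agent, with an interaction of 0.88 on the log2 scale (adjusted p = 0.00722, limma), while Cd8a did not pass (-0.15, adjusted p = 0.764).

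In 5 combination tumors of the other experiment, which enter no comparison, the lowest Gzma was 137.0 and the lowest Nkg7 401.0. The highest untreated tumor of the main experiment had 89.6 and 348.0 in the same table, and its combination tumors ranged from 24.4 to 111 for Gzma and from 225 to 431 for Nkg7. The 15 libraries of the other experiment that were put in no group ranged from 8.5 to 517 (median 112) for Gzma. For Nkg7 they ranged from 175 to 3013 (median 351). The experiment and the treatment cannot be told apart in the 5 combination tumors.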

How the results depend on the processing

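Calls of Gzmb and Nkg7 in the combination against ADU-S100 tumors held under all alternatives, while the number of genes called there, 3, ranged from 2 to 4: Gzmf was lost in 3 of 9 settings (no filter, the replicate block and libraries above 14000000 reads), Gzmk was gained in 4 of 8 and Gzma in 1 of 9. The count of granule genes called, 2 in combination against untreated tumors, was 1 with only libraries above 14000000 reads. There, 2676 of all 17042 genes tested were called higher and 3176 lower. For anti-LTβR against untreated tumors, 1 gene became 0 with no filter or with libraries above 14000000 reads, 3 with all groups in 1 fit or with DESeq2, and 0 to 3 leaving out each tumor. For combination against anti-LTβR tumors, 0 became 1 with the replicate block or edgeR under either scaling, 2 with DESeq2, and 0 to 1 leaving out each tumor. For the interaction, 0 became 1 with at least 10 in every library or edgeR under either scaling, 3 with DESeq2, and 0 to 1 leaving out each tumor. Among all genes, DESeq2 called 1692 above and 1596 below the sum, of 16481. With at least 10 in every library these were 1212 and 2001 of 14456. DESeq2 called 2304 higher and 2069 lower of 15771 against anti-LTβR tumors, and 1363 and 1725 of 15526 for anti-LTβR against untreated tumors. The cause of the changes in the number of granule genes called was not tested. The main fits did not treat tumors with the same number as paired. The replicate block, which does so, called Gzmf in combination against anti-LTβR tumors (0.84, adjusted p = 0.00933). Against ADU-S100 tumors it called Gzmk but not Gzmf (adjusted p = 0.0256 and 0.0685).

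Directions turned for differences near 0. Gzmd in combination against untreated tumors was 0.04 with edgeR, 0.06 with library totals, 0.05 with DESeq2, and -0.37 to 0.05 leaving out each tumor. Gzma there was 0.02 with library totals, 0.00 with DESeq2, 0.12 with libraries above 14000000 reads, and -0.31 to 0.00 leaving out each tumor. Nkg7 in ADU-S100 against untreated tumors was -0.02 with edgeR, library totals and DESeq2, and -0.06 to 0.15 leaving out each tumor, and Gzmk was 0.09 with libraries above 14000000 reads. The interaction of Nkg7 was -0.02 with those libraries, and Gzmk in combination against anti-LTβR tumors was -0.10 to 0.29 leaving out each tumor. Gzmk has no value with at least 10 in every library, since it did not pass. Gzmk had the fewest reads of the 9 genes, yet its SE in combination against untreated tumors (0.370) was below that of Gzmd (0.426), and what depth adds to the error was not tested.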

Other observations

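The 5 combination tumors of the other experiment ranged widely for the chromosome 14 granzymes, from 145 to 1926 normalized counts for Gzmc, 80 to 1231 for Gzmd, 47.4 to 4303 for Gzme and 83.3 to 669 for Gzmf, with each highest value in replicate 3. That library was shallow, with 8716257 reads, 1139 of them behind its Gzme value and 1 behind its Gzmk value. Each of its reads counted as 3.78 normalized counts, against 0.817 to 0.959 in the other combination libraries of that experiment. In reads, replicate 5 was above it for Gzmc (826 against 510), Gzmd (448 against 326) and Gzmf (376 against 177). Without replicate 3, the highest normalized counts of Gzmc, Gzmd, Gzme and Gzmf were 793, 430.0, 621 and 361. Gzmb ran from 705 to 1148 in the same tumors and Prf1 from 276 to 677, and without replicate 3 from 705 to 905 and from 287 to 677. Another 15 libraries of that experiment were put in no group, because their descriptions and treatment labels differ.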
